A study of Mus musculus with 6 samples.

Results

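Irx3, Irx3os and Irx5 lie beside each other on mouse chromosome 8. They are 3 of the 35474 gene symbols measured in gastrocnemius, the large calf muscle, and were selected by symbol with their values in the comparison of Ogg1Tg and Control muscle already known. Those values are therefore given as a description, with no test. In Ogg1Tg mice a transgene expresses human OGG1-1a fused to a mitochondrial translocation signal and driven by the CMV/AG promoter, which is active in many tissues. OGG1 is a glycosylase that cuts oxidised guanine out of DNA. The Control mice are C57BL/6J, and the Ogg1Tg mice are of the same strain background. All were untreated males on a chow diet, taken at 20 weeks of age, with 3 mice and 1 library each per group. Nothing in the labels gives the number of founder lines, the litters or the days of collection, so p-values measure the spread between these 6 mice.

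Library depth, as reads in named genes, was 56126407, 51651844 and 45189860 in Ogg1Tg replicates 1, 2 and 3, against 52070991, 48393073 and 50568308 in Control replicates 1, 2 and 3. Values below are reads divided by 1 factor per library (scaled reads) unless stated otherwise. Muscle fibre genes were abundant in all libraries, with Myh4, the myosin heavy chain of the fastest fibres, at 2402914 to 4983847 scaled reads in Ogg1Tg muscle and 3674266 to 5498760 in Control muscle. Ogg1Tg replicate 3 stood apart. Its summed lymphocyte markers were 13131 scaled reads, against 202 to 273 in the other 5 libraries, and its adipocyte markers were 11428, against 3229 to 4283. The fold changes of Irx3 and Irx3os are therefore also given without it.

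Iroquois genes encode transcription factors with a homeodomain of the TALE class, and they pattern the limb, heart and nervous system. Mammals carry them in clusters, and Irx3, Irx5 and Irx6 share one of these. In humans, obesity-linked variants lie in introns of the neighbouring FTO gene and have been tied to IRX3 and IRX5 over a long distance. Irx3os is a non-coding transcript from the strand opposite Irx3, and no role is assigned to it here.

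In GENCODE M21 on the GRCm38 assembly, Irx3 (ENSMUSG00000031734.13) spans chr8:91798525-91802067 on the minus strand. Irx3os (ENSMUSG00000046413.14) spans chr8:91800415-91807539 on the plus strand, and Irx5 (ENSMUSG00000031737.11) spans chr8:92357625-92376286 on the plus strand. The exons of Irx3 and Irx3os share 124 bases, chr8:91800415-91800538, which form the first exon of Irx3os and lie within the coding part of exon 2 of Irx3. These bases are 4.49% of the exon length of Irx3 and 3.33% of that of Irx3os. They are shown because reads from them could belong to either gene. Capitals mark the shared bases on the plus strand, and the lower-case letters are the first 26 bases of the second exon of Irx3os.
Irx3os exon 1 and start of exon 2: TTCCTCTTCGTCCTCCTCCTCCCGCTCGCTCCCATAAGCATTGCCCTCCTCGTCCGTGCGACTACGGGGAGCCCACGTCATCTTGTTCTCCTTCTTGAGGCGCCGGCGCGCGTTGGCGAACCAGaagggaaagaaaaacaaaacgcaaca

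RefSeq draws the locus differently. Its Irx3os model on GRCm38.p6 starts 1682 bases from the start of Irx3, runs over 70387 bases and does not overlap Irx3, against a span of 7125 bases in GENCODE. Which of these models the authors counted was not stated. The 250 bases before the RefSeq start of Irx3os, chr8:91803086-91803335 on the plus strand, are shown as the sequence next to the divergent pair. Capitals mark the 5 CG dinucleotides.
Irx3os upstream window: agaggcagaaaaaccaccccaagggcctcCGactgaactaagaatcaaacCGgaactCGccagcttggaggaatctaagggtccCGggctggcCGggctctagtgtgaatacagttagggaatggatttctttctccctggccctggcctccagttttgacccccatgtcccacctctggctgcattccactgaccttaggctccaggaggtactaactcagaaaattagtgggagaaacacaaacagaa

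The window held 52.8% G and C, beside a median of 52.4% over all promoter windows of this length, and the Irx3 window held 56% with 13 CG dinucleotides. The Irx3 window, chr8:91801655-91801904, precedes the RefSeq start of Irx3 but lies within exon 1 of Irx3 in GENCODE. The Irx3os window lies between exons of Irx3os in GENCODE, so neither window is upstream of its gene in that annotation. Searched on both strands, neither window held the E-box CANNTG, found in 66.2% of 32851 windows, or the Iroquois site ACANNTGT, which is itself an E-box and was found in 6.31%. The GC box GGGCGG (32.7% of windows), the CCAAT box CCAAT (33.8%) and the TATA box TATAAA (12.4%) were also without a match. The same held for TGATGNAA, the composite site of ATF4 and C/EBP (3.45%), the cyclic AMP response element TGACGTCA (1.55%) and the AP-1 site TGANTCA (6.75%). These are 8 motifs, and the absence of a match says only that the letters are not in these windows.

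Irx3 was lower in Ogg1Tg muscle. It had 94.4, 127 and 77.5 scaled reads in Ogg1Tg replicates 1, 2 and 3, against 248, 262 and 262 in Control replicates 1, 2 and 3. All Ogg1Tg libraries lay below all Control libraries, and the Control libraries were nearly equal. The means were 99.6 ± 25.2 in Ogg1Tg and 257 ± 7.94 in Control muscle (SD, n = 3 each), a log2 fold change of -1.39 ± 0.23 (SE) on the log2(value + 1) scale, which understates the change of low genes. These values rest on 85, 96 and 77 reads in the Ogg1Tg libraries and 179, 187 and 201 reads in the Control libraries. In reads per 1000000 reads in named genes (RPM), Irx3 was at 1.51, 1.86 and 1.70 in Ogg1Tg and 3.44, 3.86 and 3.97 in Control muscle. On that scale the coefficient of variation was 10.2% in Ogg1Tg and 7.55% in Control muscle, beside the 10.8% for Ogg1Tg and 7.27% for Control that counting alone gives. On the scaled reads it was 25.3% in Ogg1Tg and 3.08% in Control muscle, so the match with counting depends on the scale. In bulk tissue, fewer cells that express a gene and less of its RNA per cell cannot be told apart.

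Irx3os, the opposite-strand transcript, was lower in Ogg1Tg muscle by a larger factor and varied more. It had 60.0, 118 and 37.2 scaled reads in Ogg1Tg replicates 1, 2 and 3, against 485, 380 and 264 in Control replicates 1, 2 and 3. The groups did not overlap, with Ogg1Tg replicate 2 the highest of its group and Control replicate 3 the lowest of its own. The means were 71.6 ± 41.5 in Ogg1Tg and 376 ± 111 in Control muscle (SD, n = 3 each), a log2 fold change of -2.49 ± 0.41 (SE). The reads behind these values numbered 54, 89 and 37 in Ogg1Tg and 350, 272 and 202 in Control libraries. Its coefficient of variation in RPM, 41.6% in Ogg1Tg and 25.2% in Control muscle, was above the counting part of 12.9% in Ogg1Tg and 6.03% in Control muscle.

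Irx5, the second Iroquois gene of the cluster, was close to the limit of detection. It had 2, 7 and 10 reads in Ogg1Tg replicates 1, 2 and 3, against 8, 16 and 0 reads in Control replicates 1, 2 and 3. The groups overlapped fully, and the count of 0 has an exact 95% Poisson upper limit of 3.69 reads in that library. Scaled, the means were 7.18 ± 4.31 in Ogg1Tg and 11.2 ± 11.2 in Control muscle (SD, n = 3 each), while the log2 fold change was 0.12 ± 1.15 (SE). The mean and the log2 fold change differ in sign, and over 16 alternative settings the fold change was above 0 in 10 and below 0 in 6, from -1.23 to 1.04. No difference in Irx5 was detectable at this depth.

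**Figure D1:**
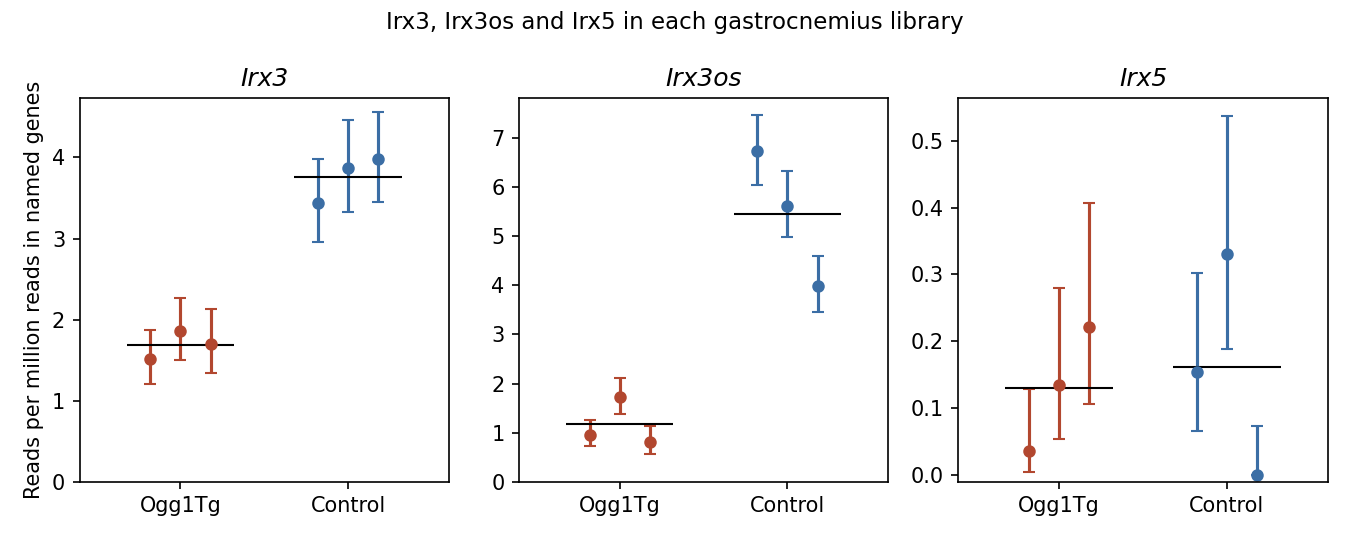
Reads per 1000000 reads in named genes (RPM) for Irx3, Irx3os and Irx5 in each of 3 Ogg1Tg and 3 Control libraries, with exact 95% Poisson intervals that cover counting error only and a line at each group mean. The Ogg1Tg libraries lie at 1.51 to 1.86 for Irx3 and 0.819 to 1.72 for Irx3os, below all Control libraries, and the groups overlap for Irx5.

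By the rule of adjusted p under 0.05 in limma, Irx3 and Irx3os were among the 35 genes called lower of 23312 tested, or 0.15%, and Irx5 was not called. A further 92 genes, or 0.395%, were called higher, so that 0.545% were called in either direction. All 3 passed the filter on low values, a mean of at least 1. Groups that do not overlap, with Ogg1Tg lower, were found for 2 of the 3 members and for 11.3% of all genes tested, while 7.03% of genes were higher without overlap. These values were known when the members were selected, so nothing is read from these counts. The call was lost in 9 of 16 alternatives for Irx3 and in 7 of 16 for Irx3os, while the fold change was negative in all 16 for both. Without Ogg1Tg replicate 3, the log2 fold change was -1.22 for Irx3 and -2.11 for Irx3os.

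The ratio of Irx3os reads to Irx3 reads was lower in every Ogg1Tg library than in any Control library. It was 0.635, 0.927 and 0.481 in Ogg1Tg replicates 1, 2 and 3, against 1.96, 1.45 and 1.00 in Control replicates 1, 2 and 3. Ogg1Tg replicate 2 and Control replicate 3 were close: the exact 95% interval was 0.687 to 1.25 in the Ogg1Tg library and 0.823 to 1.23 in the Control library. The means were 0.681 ± 0.227 in Ogg1Tg and 1.47 ± 0.475 in Control muscle (SD, n = 3 each). The difference of the mean log2 ratios was -1.11, and it ran from -1.36 to -0.88 with each library left out in turn. The ratio is built from the values that chose the members and carries no test.

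**Figure D2:**
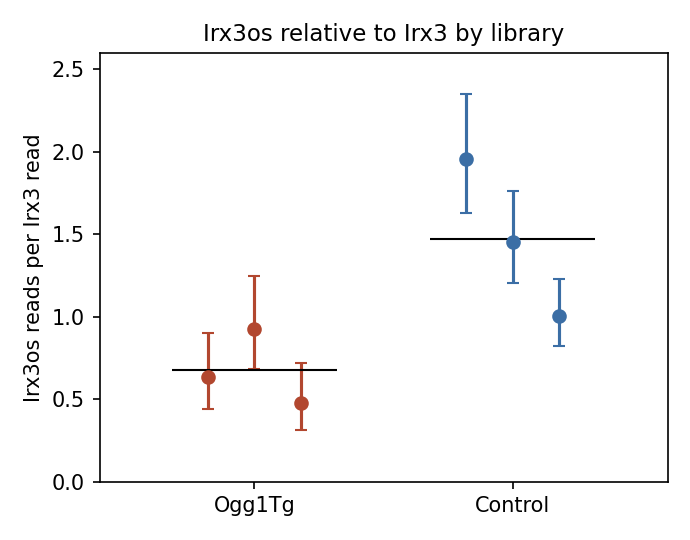
Irx3os reads per Irx3 read in each of 3 Ogg1Tg and 3 Control libraries, with exact 95% binomial intervals that cover counting error only and a line at each group mean. The Ogg1Tg libraries lie between 0.481 and 0.927 and the Control libraries between 1.00 and 1.96.

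Whether the reads were counted by strand bears on this pair. Under counting that ignores strand, a gene whose exons all lie within exons of an opposite-strand gene would hold no uniquely assigned read. Of 100 such genes whose partner had at least 100 reads on average, 81 held no read in any library and 19 held some. Of the antisense genes among them, 21 of 21 held none, against 83 of 421 (19.7%) antisense genes of the same length range with no such overlap. Of the protein-coding genes, 13 of 19 (68.4%) held none, against 2588 of 9391 (27.6%). How many of these genes are expressed at all was not tested, and the annotation used here may differ from the authors', so the strand setting was not settled. Reads of Irx3 and Irx3os from the shared bases cannot be told apart without it.

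**Figure D3:**
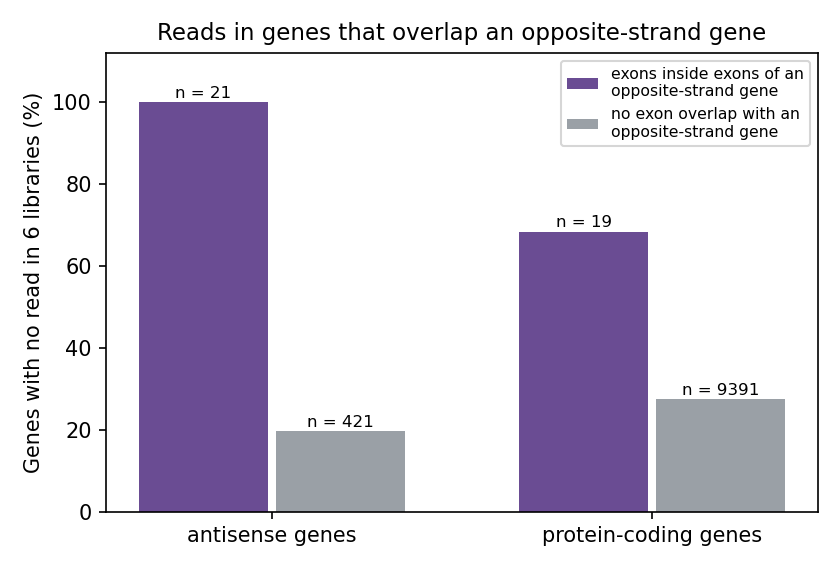
Percentage of genes with no read in any of the 6 libraries, for antisense and protein-coding genes whose exons lie inside exons of an opposite-strand gene and for genes of the same type and length range with no such overlap. All 21 overlapped antisense genes had no read, against 19.7% of the 421 others.

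Per length of exon, Irx3 and Irx3os stood near the middle of the genes tested, and the other Irx genes lay far below. The genes tested have a mean of at least 1 scaled read and so include genes near the limit of detection, such as Irx5. In Ogg1Tg muscle the mean RPM, divided by exon length in kb, were 0.742 for Mkx, 0.613 for Irx3, 0.314 for Irx3os, 0.0442 for Irx1, 0.0418 for Irx5, 0.0210 for Irx2 and 0.00748 for Irx6, with Irx4 at 0. In Control muscle they were 1.46 for Irx3os, 1.36 for Irx3, 0.656 for Mkx, 0.0516 for Irx5, 0.0256 for Irx1 and 0.0119 for Irx2, with Irx4 and Irx6 at 0. Mkx encodes the related homeobox factor Mohawk of tendon cells. In Control muscle the ranges of Irx3os (1.07 to 1.80) and Irx3 (1.24 to 1.44) overlapped, as did those of Irx5, Irx1 and Irx2. In Ogg1Tg muscle Mkx (0.638 to 0.827) and Irx3 (0.548 to 0.673) overlapped, and Irx3os (0.220 to 0.463) lay below both. Averaged over all 6 libraries, Irx3 ranked at percentile 48.6, Irx3os at 46.9 and Irx5 at 10.2 among 23183 tested genes with a known length.

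**Figure D4:**
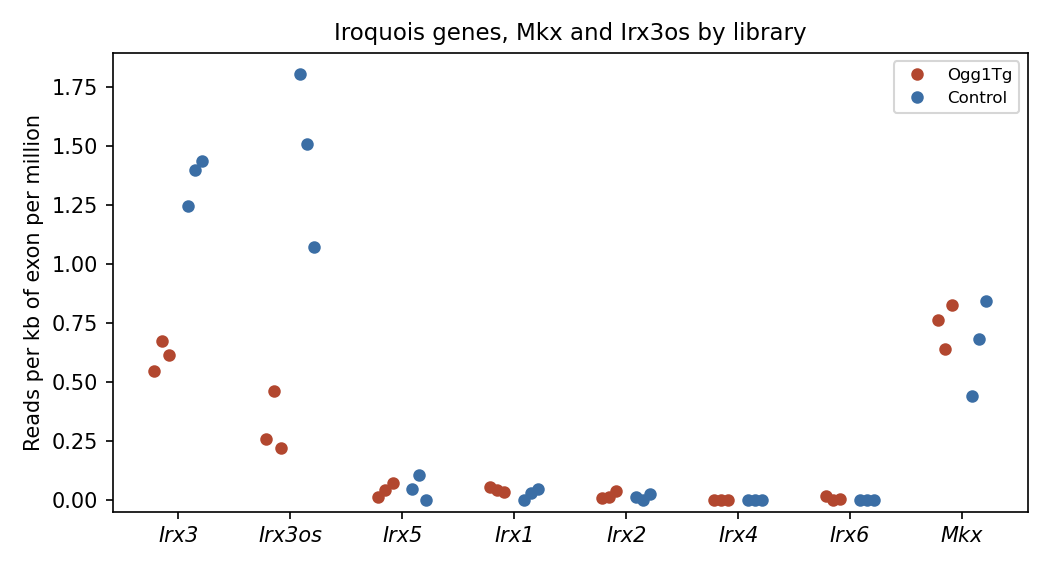
RPM divided by exon length in kb, in 3 Ogg1Tg and 3 Control libraries for the Iroquois genes, Irx3os and Mkx, 1 point per library. Irx3 and Irx3os are lower in all Ogg1Tg libraries, while Mkx overlaps between the groups and the other genes lie close to 0.

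Of the other Iroquois genes and Mkx, 3 of 5 were tested. Of these, 0 passed limma (0.545% over all genes) and 0 were at an unadjusted p under 0.05 (11% over all genes). By edgeR 0 passed, and by DESeq2 0 (3.42% over all genes). With 3 genes, such counts cannot be set apart from the shares over all genes. The DESeq2 share covers only genes with an adjusted p. DESeq2 gave Irx5 none, and Irx1 and Irx2, with fewer reads than Irx5 in both groups, may also have had none. Mkx had 194, 179 and 154 scaled reads in Ogg1Tg replicates 1, 2 and 3, against 130, 189 and 228 in Control replicates 1, 2 and 3, and its groups overlapped. Irx1 had 8, 6 and 4 reads in Ogg1Tg and 0, 4 and 6 reads in Control libraries. Irx2 had 2, 2 and 6 reads in Ogg1Tg and 2, 0 and 4 reads in Control libraries. Irx6, the third gene of the cluster, had 3, 0 and 1 reads in Ogg1Tg libraries and 0 in each Control library, and Irx4 had none in any library. These counts are too low to order.

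No other tested gene of the neighbourhood passed the test. Of 51 genes annotated with a start within 1000000 bases of the Irx3 start, 17 were in the files and 14 were tested, 3 of them the members. Of the other 11, 0 passed limma, 1, Aktip, was at an unadjusted p under 0.05, and 0 passed edgeR or DESeq2. Over all 23312 genes tested, limma called 127 (0.545%), so 0 of 11 is near that share. An unadjusted p under 0.05 was found for 2570 genes (11%). A log2 fold change below 0 was found for 12313 genes (52.8%), and the median was -0.02. DESeq2 called 3.42% of the genes to which it gave an adjusted p. The counts of each list below are set beside these shares. The median log2 fold change of the 11 neighbours was -0.15, with 9 of 11 below 0. Fto, which encodes an RNA demethylase, had 7047, 7539 and 5374 scaled reads in Ogg1Tg replicates 1, 2 and 3, against 7048, 6209 and 6512 in Control replicates 1, 2 and 3. Its groups overlapped, with a log2 fold change of 0.00 ± 0.15 (SE; limma adjusted p = 1).

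Rpgrip1l, a gene of the base of the primary cilium, had a log2 fold change of -0.07 ± 0.19 (SE; limma adjusted p = 0.91). Aktip, which encodes a protein of vesicle traffic, had 1647, 1943 and 1205 scaled reads in Ogg1Tg replicates 1, 2 and 3, against 2259, 2109 and 1951 in Control replicates 1, 2 and 3. Its groups lay just apart, with a log2 fold change of -0.42 ± 0.18 (SE; limma adjusted p = 0.42). Rbl2, a relative of the retinoblastoma gene, was at -0.24 ± 0.12 (SE; limma adjusted p = 0.52), and the chromatin remodeller gene Chd9 at -0.07 ± 0.13 (SE; limma adjusted p = 0.87). Crnde, a non-coding gene that starts 554053 bases from the start of Irx3, next to Irx5 and on the opposite strand, was at -0.09 ± 0.45 (SE; limma adjusted p = 0.96). Their log2 fold changes all lay closer to 0 than those of Irx3 and Irx3os. This difference between genes was not tested, and Irx3 and Irx3os were selected with their values known.

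The scale moves these small values. Set to equal library totals, an alternative added after the data were seen, the median log2 fold change of all genes was 0.22, against -0.02 as deposited. Fto in RPM was then 113, 110 and 118 in Ogg1Tg and 97.6, 91.7 and 98.7 in Control muscle, without overlap. Less the median of all genes, the log2 fold change over 4 scalings was -1.43 to -1.36 for Irx3 and -2.54 to -2.46 for Irx3os. The far ends, -1.43 and -2.54, came from quantile normalization, which is not 1 factor per library. The other scalings change 1 factor per library, which shifts all genes about alike, so they differ little by construction.

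**Figure D5:**
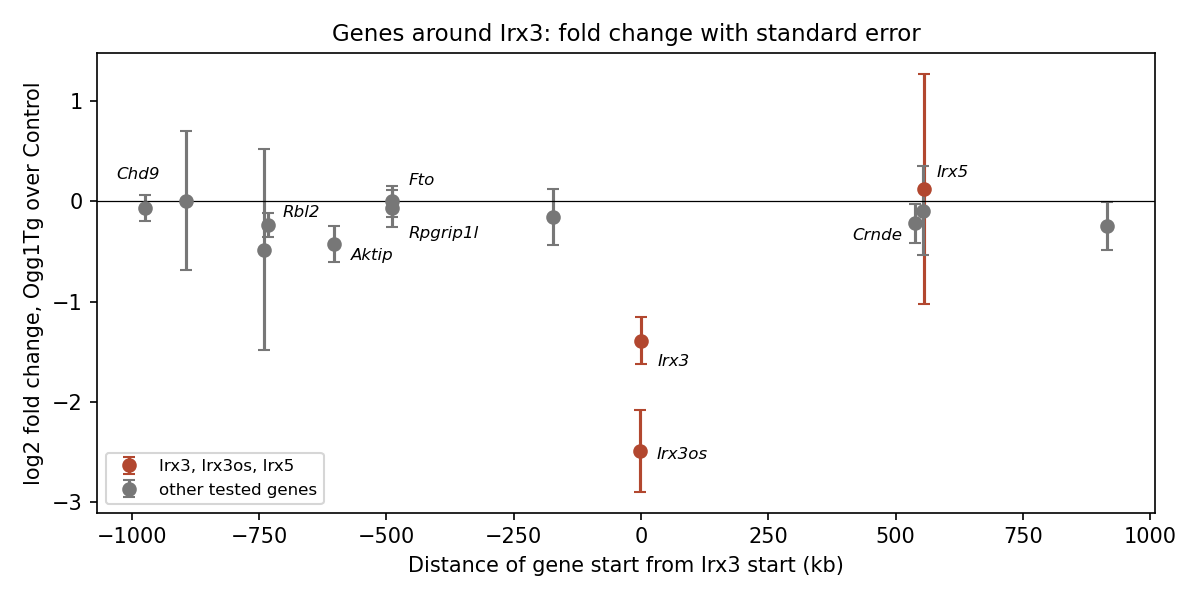
Log2 fold change of Ogg1Tg over Control muscle with its standard error for the 14 tested genes whose start lies within 1 Mb of the Irx3 start, by distance in kb. Irx3 at -1.39 and Irx3os at -2.49, selected with these values known, stand below the other genes. The 11 genes that are not members have a median of -0.15.

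Other homeobox genes were examined by lists chosen with earlier results known. Of 11 other TALE genes, partners of Hox proteins among them, 0 passed limma, 0 were at an unadjusted p under 0.05, and 0 passed edgeR or DESeq2. Their median log2 fold change was 0.16. Pknox2 averaged 1796 ± 551 scaled reads in Ogg1Tg and 1924 ± 23.6 in Control muscle (SD, n = 3 each), and the Ogg1Tg standard deviation was wider than the difference.

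Of 27 tested homeobox and T-box genes of muscle and limb, 0 passed limma, 8 were at an unadjusted p under 0.05 (11% over all genes), 0 passed edgeR and 1 passed DESeq2 (3.42% over all genes). The median log2 fold change was -0.27, with 20 of 27 below 0 (52.8% over all genes). Tbx15, a T-box factor of fast glycolytic fibres, averaged 11192 ± 3594 scaled reads in Ogg1Tg and 15708 ± 1350 in Control muscle (SD, n = 3 each; limma adjusted p = 0.46).

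Of 21 tested genes linked to Irx3 and Irx5 in adipose tissue and heart, 0 passed limma, 2 were at an unadjusted p under 0.05 (11% over all genes), 0 passed edgeR, and 2, Myh6 and Myh7, passed DESeq2 (3.42% over all genes). Their median log2 fold change was -0.12. Myh7, the slow and cardiac myosin heavy chain, had 57593, 79545 and 50855 scaled reads in Ogg1Tg replicates 1, 2 and 3, against 10585, 35642 and 35632 in Control replicates 1, 2 and 3. Control replicate 1 was far below the rest, and its group lay below the Ogg1Tg group (log2 fold change 1.37 ± 0.44, SE; limma adjusted p = 0.30). Myh6, a cardiac myosin heavy chain, was named after its values were seen and had a log2 fold change of 1.25 ± 0.37 (SE; limma adjusted p = 0.26). Cxcl12, a chemokine, averaged 5706 ± 941 in Ogg1Tg and 5475 ± 729 in Control muscle (SD, n = 3 each; limma adjusted p = 0.92).

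Within each group, the libraries ranked alike by Irx3os and by Myh4. The order of Irx3os, replicate 2 above 1 above 3 in Ogg1Tg and 1 above 2 above 3 in Control muscle, was also that of Myh4. Myh4 had 3253771, 4983847 and 2402914 scaled reads in Ogg1Tg replicates 1, 2 and 3, against 5498760, 4183360 and 3674266 in Control replicates 1, 2 and 3. Over the 6 libraries, deviations from the group means of log2 values had a Pearson r of 0.99 between Irx3os and Myh4. For Irx3 and Myh4 it was 0.81, but Irx3 had the order of Myh4 in Ogg1Tg muscle only. In Control replicates 1, 2 and 3 it had 248.2, 261.6 and 262.3 scaled reads, the reverse of the Myh4 order. These Control values were nearly equal, so each r of deviations with Irx3 rests mainly on the Ogg1Tg libraries. The points of 1 library share its depth and scaling, and this comparison was chosen after the values were seen.

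Over 8 skeletal muscle fibre markers, fast fibre genes together with Acta1 and Ckm, which all fibres express, the r of deviations with Irx3os was above 0 for 7, from -0.0017 for Myh1 to 0.99 for Myh4. With Irx3 it was above 0 for 8 of 8, from 0.12 for Myh1 to 0.90 for Acta1. Over 8 slow and oxidative fibre markers it was above 0 for 1 with Irx3os, from -0.32 for Myh2 to 0.05 for Myl3, and above 0 for 7 with Irx3, from -0.07 for Myh2 to 0.58 for Myl3. Set against Myh4, there were 18.4, 23.6 and 15.5 Irx3os reads per 1000000 Myh4 reads in Ogg1Tg replicates 1, 2 and 3, against 88.3, 90.9 and 71.8 in Control replicates 1, 2 and 3. The groups did not overlap on this ratio, with a coefficient of variation of 21.5% in Ogg1Tg and 12.4% in Control muscle. Irx3 had 29.0, 25.5 and 32.2 reads per 1000000 Myh4 reads in Ogg1Tg and 45.1, 62.5 and 71.4 in Control libraries, also without overlap. Both ratios are built from values known when the members were selected, so they carry no test and nothing is read from the gaps.

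Markers of cell types and fibre types varied between the groups to differing extents, and their part in the values of Irx3 and Irx3os was not tested. Of the 8 skeletal muscle fibre markers, 8 had a log2 fold change below 0, with a median of -0.29 and sums of 3818109 to 7435639 in Ogg1Tg and 5920871 to 8026317 in Control muscle. Of 8 slow and oxidative fibre markers, 7 were above 0, with a median of 0.99, and Myh2 was the exception. Their sums were 286529 to 499533 in Ogg1Tg and 286864 to 478820 in Control muscle. Myh2 made up most of each sum, at a mean of 271441 in Ogg1Tg and 359731 in Control muscle, so the sums hide the other markers. Control replicate 1 was the lowest Control library for each of these markers. Tnni1, for example, had 512 scaled reads there, against 1876 and 1620 in Control replicates 2 and 3, and 2743 to 4190 in Ogg1Tg muscle. Of 7 mural cell markers, 7 were below 0, with sums of 22459 to 30739 in Ogg1Tg and 31123 to 36924 in Control muscle, without overlap. Of 5 erythroid markers, 5 were below 0, with sums of 537 to 655 in Ogg1Tg and 668 to 871 in Control muscle, also without overlap. Alas2 made up most of each erythroid sum, at a mean of 410 in Ogg1Tg and 469 in Control muscle, and its own groups overlapped. The gaps in the mural and erythroid sums are on scaled reads. In RPM both sums overlapped between the groups. Of 7 endothelial markers, 7 were below 0, and of 8 tendon cell markers, 7 were. The endothelial sums were 14094 to 15793 in Ogg1Tg and 14877 to 18836 in Control muscle, and the tendon cell sums were 10075 to 17843 in Ogg1Tg and 9625 to 23029 in Control muscle, both with overlap. The 10 fibroblast markers had a median of 0.00, with 5 below 0 and sums of 87223 to 98999 in Ogg1Tg and 82203 to 106332 in Control muscle. That median hides opposite directions. Col3a1 (0.69), Col1a1 (0.67) and Col1a2 (0.42) were above 0, while Pdgfra (-0.40), Dcn (-0.36) and Gsn (-0.33) were below, and the rest moved less. DESeq2 called Col1a1 and Col3a1. Other lists went the other way or were mixed. Of 8 adipocyte markers 0 were below 0 (median 0.43), and of 8 lymphocyte markers 0 were (median 3.19). Both sums were highest in Ogg1Tg replicate 3. Below 0 were 6 of 7 Schwann cell, 5 of 7 macrophage and 3 of 6 satellite cell markers. Over all 12 marker lists, 0 of 89 genes passed limma, 15 were at an unadjusted p under 0.05 (11% over all genes), 0 passed edgeR and 6 passed DESeq2 (3.42% over all genes). Among the markers at 0 in some library were the lymphocyte genes Ms4a1, Cd3e and Cd3g and the erythroid gene Slc4a1.

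By log2 values over the 6 libraries, Irx3 and Irx3os had a Pearson r of 0.97 with each other, and 0.82 for deviations from the group means. The first of these also holds the difference between the groups, which was known when both were selected. In Control muscle the 2 genes ran in opposite order. Irx3 had 248.2, 261.6 and 262.3 scaled reads in Control replicates 1, 2 and 3, and Irx3os had 485, 380 and 264. Irx3 and Irx5 had an r of -0.04. The search for like genes left out Gm, Rik, Mir and pseudogene names, repeated entries of a symbol and symbols that open with a digit. Among the 14441 remaining genes with a mean of at least 10, those most like Irx3 included Cd24a, Lrtm2, Tshz1 and Htra4, all with r above 0.99. Cd24a, which encodes a small cell-surface protein, had 2387, 3993 and 1744 scaled reads in Ogg1Tg replicates 1, 2 and 3, against 12758, 11471 and 12299 in Control replicates 1, 2 and 3. All Ogg1Tg values lay far below the Control values, a gap that selection by a high r with Irx3 over all 6 libraries favours. By deviations from the group means, the most like genes were Nr4a1, Dock4 and Kcnab1. Nr4a1, an immediate early nuclear receptor gene, had 4138, 7328 and 2846 scaled reads in Ogg1Tg and 5712, 6293 and 6223 in Control libraries, and its groups overlapped.

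The genes most like Irx3os were Akirin1, Fam53b, Ift74, Laptm4b and Slc38a4. Slc38a4, an amino acid transporter gene, had 3791, 5606 and 2954 scaled reads in Ogg1Tg replicates 1, 2 and 3, against 9544, 8211 and 7074 in Control replicates 1, 2 and 3, without overlap. Selection by a high r with Irx3os over all 6 libraries favours such a gap too. By deviations they included Mybpc2, which encodes the fast isoform of myosin-binding protein C, and Pde4b. Mybpc2 had 181057, 278966 and 140959 scaled reads in Ogg1Tg and 266394, 227833 and 187532 in Control libraries, with overlap between the groups. The genes most like Irx5 were Actg2, Irgm1, Rsrc1, Dpm3 and Sh3yl1, and by deviations Rwdd2a, Ssc4d and Actg2. Actg2, the smooth muscle gamma actin, had 4.44, 15.9 and 14.1 scaled reads in Ogg1Tg and 0 to 29.4 in Control libraries, so this likeness rests on low counts. Each r is the highest of all genes searched over 6 libraries and is given as a description.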

How the data were processed

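Gastrocnemius RNA from 3 Ogg1Tg and 3 Control mice was sequenced after NuGen Ovation Universal library preparation, according to the labels. Trimmomatic, SAMtools, HTSeq and mm10 are named in the submitters' processing notes. No source used here gives the aligner, annotation or strand setting. Although the files are named FPKM, the signal the authors deposited is a read count per gene over a library factor, whatever the length of the gene. Whole reads were recovered within 0.01 of a read for 100% of values, although the step of 1.006 in Ogg1Tg replicate 3 is near 1 and so less distinctive. Entries without a gene name (1824 of 37315, 2.38% to 3.54% of reads) were left out, and 13 symbols occur more than once.

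Values were tested as log2(value + 1) with limma 3.58.1 in R 4.3.3 (contrast Ogg1Tg minus Control, variance trend, two-sided, Benjamini-Hochberg over 23312 genes with a mean of at least 1). The test was written knowing that the files hold scaled counts. Alternatives were edgeR 4.0.16 and DESeq2 1.42.0 on recovered reads, another pseudocount, 2 filters, 2 rescalings, no variance trend, each library left out, and a block for the replicate number. Scaling to equal library totals was added after the data were seen. Poisson and binomial intervals at 95% cover counting error only.

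The members, lists and naming rule were chosen with earlier results of these data known. The rule names the members, the other Iroquois genes, tested neighbours within 1 Mb that have a proper name, called genes and the 2 highest means of each list, and the 5 and 3 genes most like each member. Marker genes, Myh4 among them, are outside it. Some genes that the rule selects are not reported here. The strand check was first made over all gene types together, then split by type with a length-matched comparison after its values were seen, and both are given. The 8 motifs had no match, and the capitals in the upstream window were set to CG afterwards. Coordinates come from GENCODE M21 on GRCm38, which matched 35319 of 35474 symbols to 1 gene, and windows from RefSeq GRCm38.p6.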

Additional observations from a re-analysis of the deposited data

How the results depend on the processing

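Irx3 and Irx3os were lower in Ogg1Tg muscle under all 16 alternatives, with log2 fold changes of -1.58 to -1.15 and -2.92 to -2.11. The limma call that marked them was lost in 9 of 16 alternatives for Irx3 and in 7 of 16 for Irx3os: DESeq2 called both, edgeR called neither, and with single libraries left out each was called in 2 of 6 fits. Among all genes, 92 were called higher and 35 lower. Without a variance trend these counts were 41 and 5, with DESeq2 363 and 256, and with each library left out 32 to 225 higher and 2 to 200 lower, both highest without Ogg1Tg replicate 3. The cause was not tested. Of the homeobox and T-box list, DESeq2 called 1 gene, and 0 to 1 were called with each library left out. Of the genes linked to Irx3 and Irx5, DESeq2 called 2. The labels do not say that the replicate numbers pair the mice. Same-numbered libraries had correlations of deviations of -0.05, -0.01 and 0.03, and libraries with different numbers had -0.07 to 0.07. These values do not settle whether any mice shared a litter or a day of collection. With the replicate number as a block, 75 genes were called higher and 27 lower, the limma call was lost for Irx3 and kept for Irx3os, and the fold changes were -1.39 and -2.49, which a block cannot move in a balanced design. Depth limits Irx5, at 0 to 16 reads per library, and the rest of the family other than Irx3 and Mkx.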
